A study of Mus musculus with 20 samples.

Results

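Ileal transcripts of 9 secreted defence genes were followed: the Reg genes Reg3a, Reg3b, Reg3g, Reg1 and Reg4, the serum amyloid A genes Saa1, Saa2 and Saa3, and Retnlb, which encodes the resistin-like protein RELMβ. They were chosen by name, as members of these families known for intestinal defence, from the 35204 genes in the count table. RNA came from the terminal ileum of 20 female C57BL/6 mice that began at 7 weeks of age and ate a control diet (CD) or a tryptophan-deficient diet (TDD) for 3 weeks. Mice were kept specific pathogen-free (SPF) or received ampicillin, vancomycin, metronidazole, neomycin and gentamycin in the drinking water (ABX). The 4 groups, CD, TDD, CD+ABX and TDD+ABX, held 5 mice each, with 1 library of polyadenylated RNA per mouse and 36676963 to 58662617 assigned reads (median 47553758.5). The samples were whole pieces of gut wall, so a difference in any transcript may reflect fewer cells of a type or less RNA per cell, which cannot be told apart.

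Reg3b and Reg3g are C-type lectins that enterocytes and Paneth cells release into the lumen. Reg3g binds the peptidoglycan of Gram-positive bacteria and keeps them away from the epithelium, and Reg3b acts against Gram-negative bacteria as well. Both are induced when bacteria colonise the gut, through the Toll-like receptor adaptor Myd88 in the epithelium and through the cytokine IL-22, which signals by the transcription factor Stat3. Serum amyloid A proteins bind lipids and retinol and rise in the ileum when bacteria attach to it, and RELMβ is a goblet cell product that is far more abundant in the colon. The comparison of diets with and without ABX bears on whether tryptophan deprivation alters these genes and whether an intact microbiota is needed for it.

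Reg3b (ENSMUSG00000071356), Reg3a (ENSMUSG00000079516), Reg1 (ENSMUSG00000059654) and Reg3g (ENSMUSG00000030017) lay side by side within 98.2 kb of chromosome 6 in GRCm38, as annotated in GENCODE M21. Reg3b occupied chr6:78370657-78373466, Reg3a chr6:78380709-78383827 and Reg1 chr6:78422711-78428667 on the plus strand, while Reg3g occupied chr6:78466269-78468872 on the minus strand. Saa3 (ENSMUSG00000040026), Saa1 (ENSMUSG00000074115) and Saa2 (ENSMUSG00000057465) lay within 42.3 kb at chr7:46711998-46715700, chr7:46740497-46742980 and chr7:46751790-46754313. Reg4 (ENSMUSG00000027876) was on chromosome 3 at chr3:98222156-98236748 and Retnlb (ENSMUSG00000022650) on chromosome 16 at chr16:48816856-48818892. All 9 genes are annotated as protein coding.

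The promoters of the 3 Reg3 genes are shown because the levels of Reg3b and Reg3g were correlated from mouse to mouse, and more closely than either was with Reg3a, which lies 7.24 kb from Reg3b. Each line runs from base -150 to base -22 relative to the RefSeq transcription start (GRCm38.p6), 5′ to 3′ on the gene's own strand. Capitals mark the letters TATAAA and TTCNNNGAA, the spacing of a STAT site. Of the 9 genes, 8 had a RefSeq promoter entry, Retnlb being the exception.
Reg3b, chr6:78370735-78370863, plus strand: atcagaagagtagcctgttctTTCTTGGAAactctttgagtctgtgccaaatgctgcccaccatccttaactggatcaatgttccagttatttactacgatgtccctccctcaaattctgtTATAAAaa
Reg3g, chr6:78468896-78469024, minus strand: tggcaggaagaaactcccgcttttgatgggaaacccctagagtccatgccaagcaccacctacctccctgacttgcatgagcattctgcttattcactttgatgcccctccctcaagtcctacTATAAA
Reg3a, chr6:78380559-78380687, plus strand: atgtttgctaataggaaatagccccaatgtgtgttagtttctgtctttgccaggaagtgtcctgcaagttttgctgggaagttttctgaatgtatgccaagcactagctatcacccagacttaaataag

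Over the 250 bases before the start, Reg3b and Reg3g were 68.4% identical, against 45.1% for Reg3a and Reg3b and 47.5% for Reg3a and Reg3g. TATAAA stood at base -29 in Reg3b and base -27 in Reg3g, and it was present in Reg1 too. On either strand, these letters occurred in 12.4% of 32851 mouse promoters of the same length. TTCNNNGAA was found in Reg3b alone of the 8 promoters, as TTCTTGGAA with its first base at -129, and in 7.02% of all promoters. TTGCNNAA, part of a C/EBP site, occurred in Reg3a, Saa1, Saa2 and Saa3 and in 9.56% of all promoters. These are matches of letters within a short window and not measured sites. The Saa1 and Saa2 promoters were 94.8% identical.

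Sequence identity also sets how well reads can be told apart. Only 5 of the 1120 stretches of 31 bases in Reg3b transcripts also occurred in Reg3g and in no further gene, although the main mRNAs were 67.7% identical, so reads from the pair could be assigned separately. Reg3a, Reg4 and Retnlb shared no such stretch with any other gene. Reg1 shared 4.13% of its stretches, most often with Orc3, and Saa3 shared 7.29%, most often with Ilf2. How far reads of other genes entered these 2 was not tested. Saa1 shared 46.8% of its stretches, almost all with Saa2, and the split of reads between Saa1 and Saa2 is therefore uncertain.

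Tissue identity and carry-over of neighbouring tissue were checked first. The 10 enterocyte markers summed to group means of 34191 to 37670 CPM (assigned reads of a gene scaled to a common library total, with TMM factors) and the 10 Paneth cell markers to 12650 to 16364 CPM. The ileal bile acid genes Slc10a2, the apical transporter, and Fabp6, the cytosolic binding protein, were low in SPF mice. Slc10a2 read 1.38 to 3.89 CPM in CD and 3.69 to 8.80 CPM in TDD mice, against 16.6 to 86.1 CPM in CD+ABX and 13.2 to 58.3 CPM in TDD+ABX mice. It was higher with ABX on CD (log2 fold change 4.07 ± 0.48 SE, q = 9.83e-05) and on TDD (2.65 ± 0.44, q = 0.0014). Here and below q is the adjusted p (Benjamini-Hochberg over 16306 genes) of edgeR's quasi-likelihood test, and a gene was called where q was under 0.05 and the fold change at least 2.

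Single libraries held transcripts of other organs. CD mouse 5 carried 226 CPM of 10 pancreatic acinar genes, against 0.528 to 1.57 CPM in the other mice, and its digestive lipase Pnlip stood at 33.2 CPM while 18 other mice had none. Over the whole list of 12 acinar genes the sum was 332 CPM in CD mouse 5 and 45.2 to 92.2 CPM elsewhere, with the colipase gene Clps the most abundant in every mouse. Serum albumin, Alb, read 14.9 and 11.0 CPM in TDD mice 4 and 5 and 10.9 and 12.5 CPM in CD+ABX mice 1 and 2, and no more than 0.168 CPM in any other mouse. The 7 hepatocyte markers summed to 23.5 to 31.4 CPM in those 4 mice and 3.81 to 9.86 CPM elsewhere. Lymphoid follicle content also differed. The 6 B cell and follicle markers, led by the B cell receptor gene Cd79a in most mice, summed to 65.4 and 94.7 CPM in CD mice 2 and 3, to 66.3 to 143 CPM in TDD mice 2 to 5 and to 100.3 CPM in TDD+ABX mouse 5. They summed to 3.56 to 23.4 CPM in the other 13 mice.

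Reg3b was the most abundant of the 9 genes in CD mice and varied widely between TDD mice, 14.6-fold from the lowest to the highest, as did Reg3g (16.5-fold) and the much lower Saa1 (3 to 137 reads). Its level was 760, 1064, 650, 636 and 742 CPM in CD mice 1 to 5. In TDD mice 1 to 5 it was 3197, 2353, 577, 7583 and 519 CPM. TDD mice 1, 2 and 4 lay above every CD mouse, whereas TDD mice 3 and 5 lay below every CD mouse, so the groups overlapped. CD mice averaged 770 ± 173 CPM and TDD mice 2846 ± 2888 CPM (SD, n = 5). Reg3b was called higher on TDD in SPF mice, 3.69-fold (log2 fold change 1.88 ± 0.59 SE, q = 0.039). Of the 7 members tested, Reg3b was the one called higher and Reg1 the one called lower in this comparison, in which 1.83% of all genes were called, 0.834% higher and 0.993% lower. The call on Reg3b depended on single mice: without TDD mouse 4 the log2 fold change was 1.11 with q = 0.17, and the call was also lost without any 1 of CD mice 1, 3, 4 and 5 or TDD mice 1 and 2. It was also lost with no filter on low counts (q = 0.0795), by limma-voom (1.28, q = 0.17), by limma on either TPM scale (1.14, q = 0.211 and 0.21), with only the CD and TDD mice in the fit (q = 0.111) and with the replicate number as a block (1.64, q = 0.106).

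With ABX, Reg3b was 191, 360, 438, 322 and 413 CPM in CD+ABX mice 1 to 5. It was 96.6, 257, 472, 288 and 124 CPM in TDD+ABX mice 1 to 5. No ABX-treated mouse reached the lowest SPF mouse, which had 519 CPM, so all 10 SPF mice lay above all 10 ABX-treated mice. Of all genes tested, 0.54% separated the mice in this way. On TDD, Reg3b fell 11.5-fold with ABX (log2 fold change -3.52 ± 0.63, q = 0.00213), and the call held with any 1 mouse left out, over a range of -3.88 to -2.75. On CD it was 2.23-fold lower with no overlap between the groups, but the difference did not pass the test (-1.16 ± 0.58, q = 0.209). The share of all genes with such a gap between the CD mice and lower CD+ABX mice was 5.88%, and between the TDD mice and lower TDD+ABX mice 5.05%. When only the CD and CD+ABX mice were fitted, the same difference gave q = 0.00923.

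**Figure D1:**
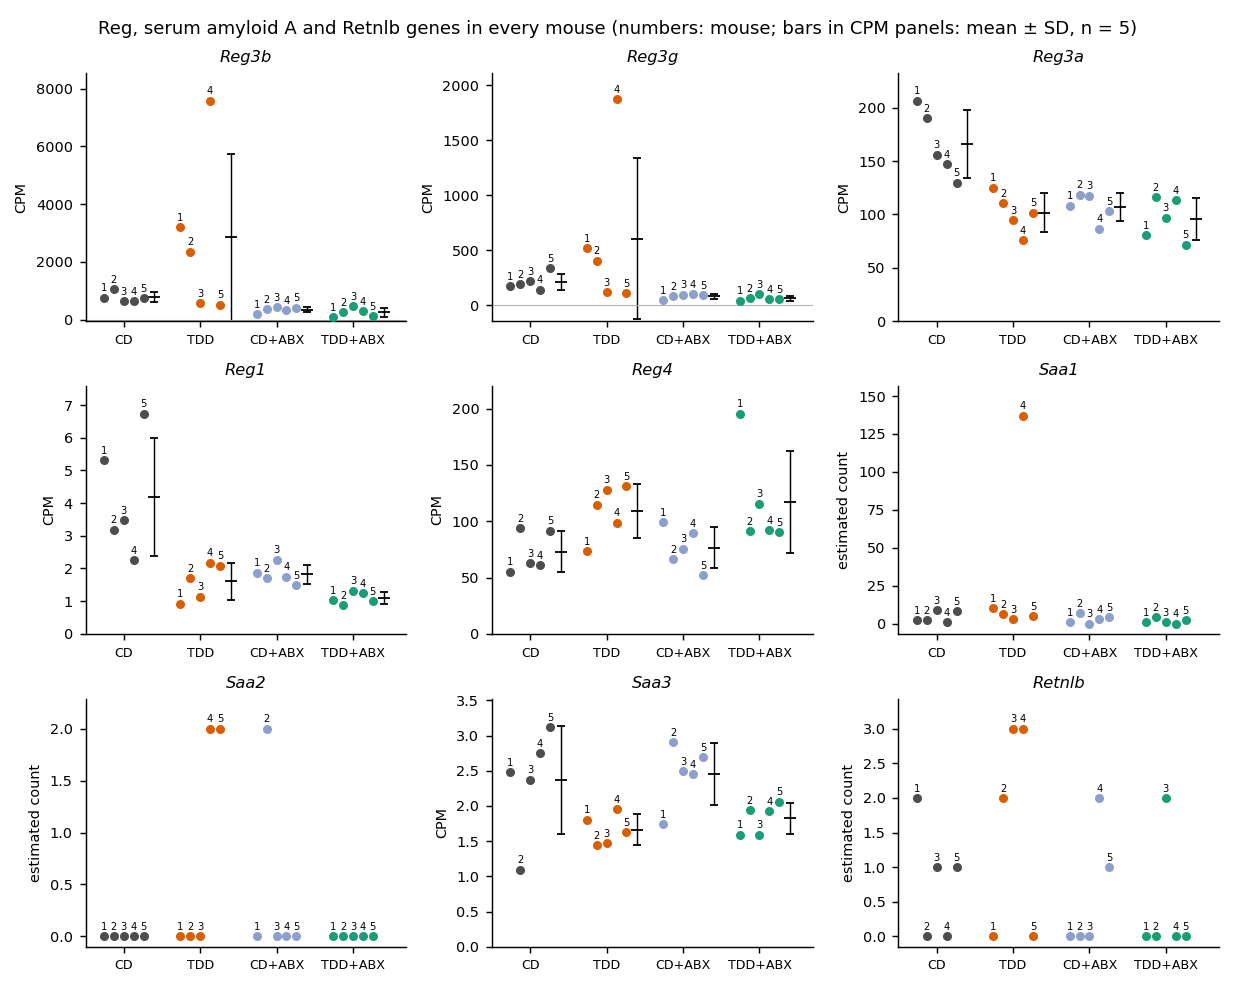
Level of each of the 9 genes in every mouse by group; points are mice, numbered 1 to 5, and the bars in the CPM panels give the mean ± SD of 5 mice, while Saa1, Saa2 and Retnlb are shown as estimated read counts. TDD mouse 4 stands at 7583 CPM for Reg3b, 1876 CPM for Reg3g and 137 counts for Saa1, TDD mice 3 and 5 lie with the CD mice or below them, and all ABX-treated mice lie at or under 472 CPM for Reg3b.

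Reg3g ranked the TDD mice in the same order as Reg3b, but not the mice of the other groups. It was 178, 196, 219, 143 and 339 CPM in CD mice 1 to 5 and 524, 407, 118, 1876 and 113 CPM in TDD mice 1 to 5. Again TDD mice 1, 2 and 4 exceeded every CD mouse, and TDD mice 3 and 5 were under every CD mouse. Group means were 215 ± 74.7 and 608 ± 731 CPM, and the 2.83-fold difference did not pass the test (log2 fold change 1.50 ± 0.57, 95% interval 0.39 to 2.61, q = 0.0879). Without TDD mouse 4 the value was 0.43 with q = 0.542, whereas without TDD mouse 3 or TDD mouse 5, the mice with the lowest levels, Reg3g was called.

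Under ABX, Reg3g read 47.2, 82.8, 98.8, 104 and 93.1 CPM in CD+ABX mice 1 to 5, and 44.0, 63.5, 101, 57.7 and 55.1 CPM in TDD+ABX mice 1 to 5. As with Reg3b, the lowest SPF mouse (113 CPM) stood above the highest ABX-treated mouse (104 CPM), and these were the 2 members that separated all SPF from all ABX-treated mice. On TDD, Reg3g fell 9.45-fold with ABX (-3.24 ± 0.61, q = 0.00277), with a range of -3.51 to -2.18 when 1 mouse was left out. On CD it was 2.52-fold lower without overlap and did not pass the test (-1.33 ± 0.57, q = 0.136). In the fit of those 2 groups alone q was 0.0117, and without TDD mouse 4 in the fit of all groups it was 0.0352.

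Between diets under ABX, neither gene passed the test: the log2 fold change was -0.48 ± 0.57 for Reg3b (q = 0.751) and -0.41 ± 0.56 for Reg3g (q = 0.792). None of the members was called in this comparison, in which 0.307% of genes were called. An unadjusted p under 0.05 was found in 2400 genes (14.7%), Reg1, Reg4 and Saa3 among them. DESeq2 and limma-voom likewise called no member there. The difference between the diet effects in SPF and ABX-treated mice was tested as an interaction. It was -2.36 ± 0.81 for Reg3b (q = 0.339) and -1.91 ± 0.80 for Reg3g (q = 0.471), and no member was called, against 0.0245% of all genes. The interaction had an unadjusted p under 0.05 in 1446 genes (8.87%). Among them were Reg3b, Reg3g and, with the opposite sign, Reg3a (0.55 ± 0.22, q = 0.43). Saa1 was there too, but it was tested only because of its 137 reads in TDD mouse 4, so its value describes that mouse. The data therefore do not show that the diet effect on these lectins differed with ABX, although the separate comparisons gave a call in SPF mice for Reg3b and none under ABX.

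**Figure D2:**
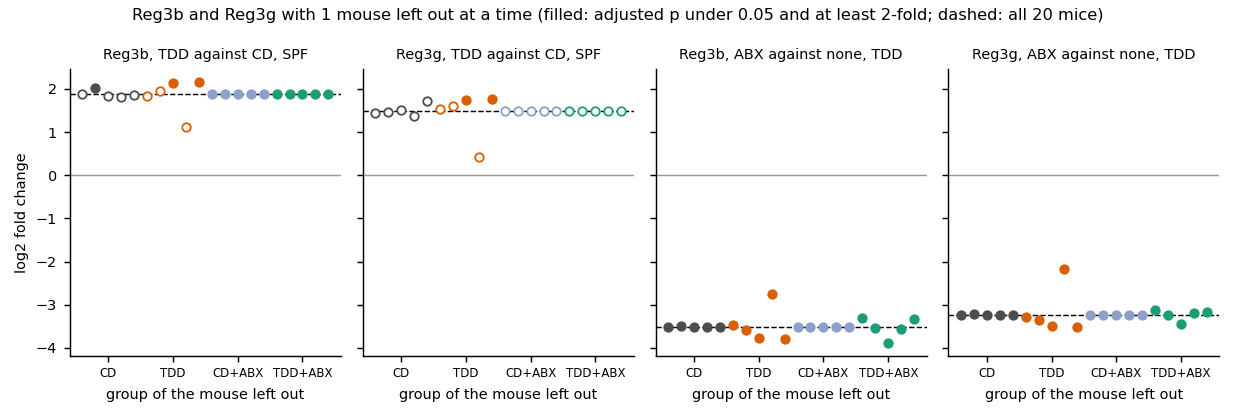
Log2 fold change of Reg3b and Reg3g for diet in SPF mice and for ABX on TDD when 1 of the 20 mice is left out, coloured by the group of that mouse; filled points were called and the dashed line is the value from all mice. Leaving out TDD mouse 4 takes the diet value of Reg3b to 1.11 and of Reg3g to 0.43, and every point for ABX on TDD is filled.

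Among the 20 mice the ratio of Reg3b to Reg3g in CPM stayed between 2.19 and 6.10 (median 4.39), while Reg3b itself ran from 96.6 to 7583 CPM. The median ratio was 4.27 in CD, 4.89 in TDD, 4.35 in CD+ABX and 4.05 in TDD+ABX mice. Pearson's r of log2(CPM + 1) was 0.96 over the 20 mice and 0.91 after the group means were removed, and 0.94 over the 19 mice without TDD mouse 4. The 2 values of each mouse come from 1 library. Reg3a, which lies between the pair on the chromosome, was less closely related to them. Its r was 0.22 with Reg3b and 0.14 with Reg3g over the 20 mice, and 0.15 and -0.21 within groups. These values depended on TDD mouse 4, without which they were 0.55 and 0.51 over the other 19 mice.

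**Figure D3:**
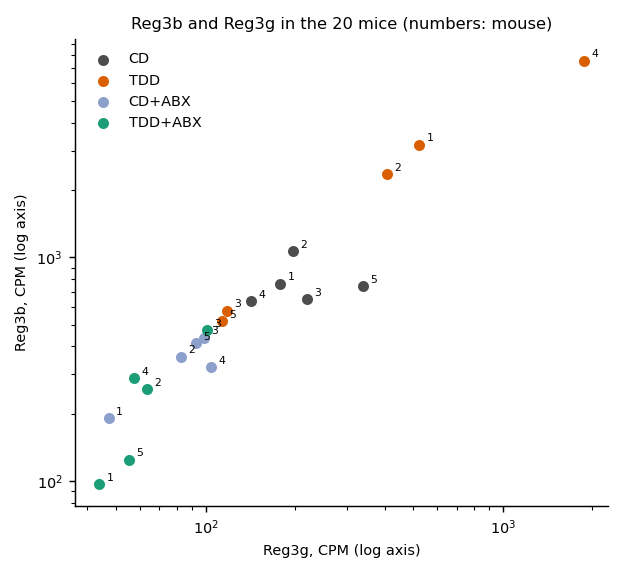
Reg3b against Reg3g in CPM, both on log axes, in each of the 20 mice, coloured by group and numbered by mouse. The points run along 1 diagonal from TDD+ABX mouse 1 (96.6 and 44.0 CPM) to TDD mouse 4 (7583 and 1876 CPM), with the ABX-treated mice at the lower end and TDD mice 1, 2 and 4 at the upper end.

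Of the 12 cell marker sums, that of goblet cells was the 1 that ranked the TDD mice as Reg3b and Reg3g did, and it ranked the mice of the other 3 groups differently. The 8 goblet cell markers, led by Fcgbp in every mouse and none of them at 0, summed to 7585, 7174, 6462, 7644 and 5720 CPM in TDD mice 1 to 5 and to 7157 to 9517 CPM in CD mice. CD mouse 2 had the highest Reg3b of its group and the lowest goblet cell sum. The part of goblet cells in the lectin levels was not tested. TDD mice 4 and 5, which had like levels of Alb, had the highest and the lowest Reg3b of their group. TDD mouse 1, with 3197 CPM of Reg3b, had the lowest follicle markers of its group (4.32 CPM), and TDD mouse 5, with 519 CPM, had 112 CPM of them. The part of hepatic RNA and of follicle content in the lectin levels was not tested. After the 5 libraries with pancreatic or hepatic RNA were left out, both genes were still called lower with ABX on TDD, by log2 fold changes of -3.03 for Reg3b (q = 0.0109) and -2.43 for Reg3g (q = 0.00715). The diet value of Reg3b in SPF mice was then 1.38 with q = 0.185, over 4 CD and 3 TDD mice.

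Reg3a, a related lectin, was lower on TDD in SPF mice. In CD mice 1 to 5 it was 207, 190.0, 156, 147 and 130 CPM, and in TDD mice 1 to 5 it was 125, 111, 94.9, 75.7 and 102 CPM. Every CD mouse lay above every TDD mouse, as all TDD mice did below CD for 4.9% of genes. The 1.63-fold difference passed the test but not the 2-fold limit (log2 fold change -0.71 ± 0.15, q = 0.005, where 14.4% of genes had q under 0.05), as it did with any 1 mouse left out. TDD mouse 4, highest in Reg3b, was lowest in Reg3a. In CD+ABX mice Reg3a ranged from 86.6 to 119 CPM and in TDD+ABX mice from 71.7 to 116 CPM. ABX gave a 1.55-fold lower level on CD (-0.64 ± 0.15, q = 0.0113) without overlap and again short of 2-fold, in a comparison in which 12.6% of genes had q under 0.05. The other comparisons did not pass, with values of -0.16 for diet under ABX (q = 0.689) and -0.08 for ABX on TDD (q = 0.745). The interaction, 0.55 ± 0.22, did not pass either (q = 0.43). The group order of the means was CD (166 ± 31.6 CPM), CD+ABX (107 ± 13.0), TDD (102 ± 18.4) and TDD+ABX (95.8 ± 19.6), and the last 3 overlapped.

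Reg1, first described in the pancreas as the stone protein lithostathine and also made in the small intestine, was low in these samples and highest on CD in SPF mice. It was 5.32, 3.19, 3.47, 2.25 and 6.74 CPM in CD mice 1 to 5 and 0.929, 1.70, 1.14, 2.17 and 2.09 CPM in TDD mice 1 to 5. The lowest CD mouse stood just above the highest TDD mouse. Reg1 fell 2.61-fold on TDD (-1.38 ± 0.27, q = 0.00209), and the call held without any 1 mouse. CD mouse 5, the library with pancreatic RNA, had the highest Reg1, and without it the value was -1.15. Under ABX it was 1.87, 1.70, 2.27, 1.75 and 1.49 CPM on CD and 1.03, 0.881, 1.32, 1.25 and 1.01 CPM on TDD. Those groups did not overlap either, as for 2.43% of genes in that direction, but the difference did not pass the test (-0.72 ± 0.27, q = 0.206). ABX lowered Reg1 on CD 2.30-fold (-1.20 ± 0.27, q = 0.00635), the 1 member called among the 7 tested where 2.25% of genes were called and 1.67% were called lower. CD mouse 4 and CD+ABX mouse 3 overlapped. Without CD mouse 5 this value was -0.96 (q = 0.0206), short of 2-fold. On TDD the ABX value was -0.55 ± 0.27 (q = 0.182).

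The loss of Reg1 on TDD lay in 1 of its transcripts, as far as kallisto's estimates separate them. The 769-base transcript ENSMUST00000079926 averaged 6.84 ± 3.53 TPM (a level scaled for transcript length and library size) in CD and 1.35 ± 0.972 TPM in TDD mice. The 904-base transcript ENSMUST00000204687 averaged 1.56 ± 0.498 and 1.53 ± 0.696 TPM and held 22.1% of Reg1 reads in CD mice. Both overlap almost wholly, so this split is uncertain, and it was not tested.

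Reg4, a lectin of goblet and enteroendocrine cells, did not pass any comparison. It was 55.2 to 93.8 CPM in CD (median 62.9), 73.2 to 131 CPM in TDD (median 115), 52.4 to 98.9 CPM in CD+ABX (median 75.8) and 90.4 to 196 CPM in TDD+ABX mice (median 92.3). The diet differences, 0.58 ± 0.23 in SPF mice (q = 0.107) and 0.61 ± 0.23 under ABX (q = 0.221), had 1 sign, and the ABX differences were 0.07 on CD and 0.10 on TDD. None of 8 goblet and 8 enteroendocrine markers was called in any comparison. At q under 0.05 and under 2-fold, the goblet cell gene Clca1 was lower (-0.98, q = 0.000619) and the enteroendocrine factor Neurod1 higher (0.44, q = 0.0154) on TDD in SPF mice. In that comparison 5 enteroendocrine markers had a value above 0 and 3 below (median 0.12). Of the goblet cell markers 2 were above 0 and 6 below (median -0.20). On TDD under ABX all 8 enteroendocrine markers had a value above 0 (median 0.30, all genes 0.00), none with q under 0.05, and the part of these cells in the Reg4 level was not tested. The 196 CPM of TDD+ABX mouse 1 stood apart from the next mouse of its group at 116 CPM.

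**Figure D4:**
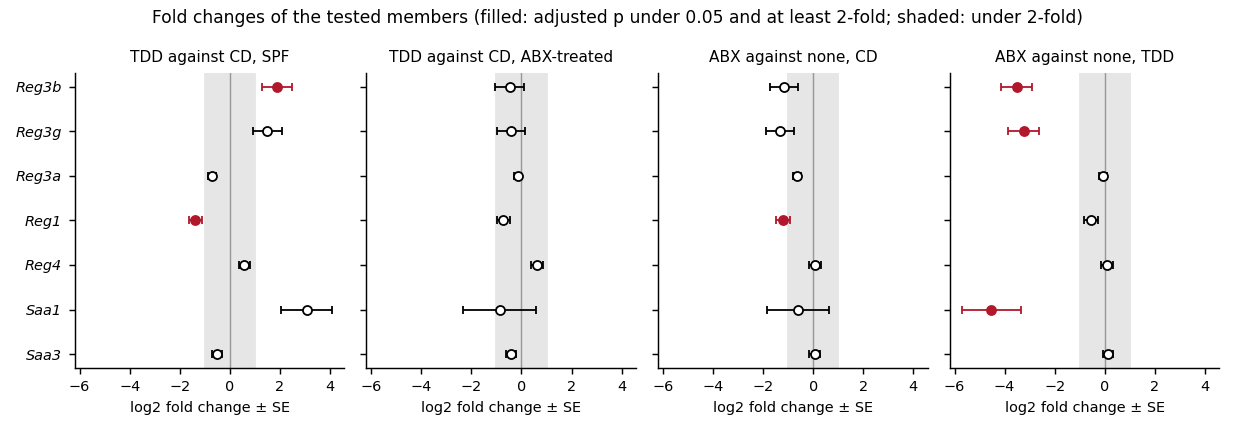
Log2 fold change ± SE of the 7 tested members in the 4 pairwise comparisons; filled points were called at adjusted p under 0.05 and at least 2-fold, and the shaded band is under 2-fold. Reg3b (-3.52) and Reg3g (-3.24) fell with ABX on TDD, Reg1 fell with TDD in SPF mice (-1.38) and with ABX on CD (-1.20), Saa1 with ABX on TDD (-4.53) rests on TDD mouse 4, and Reg3a, Reg4 and Saa3 were called in none.

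The acute-phase serum amyloid genes were near the limit of detection. Saa1 had 2, 2, 9, 1 and 8 reads in CD mice 1 to 5, 10, 6, 3, 137 and 5 in TDD mice 1 to 5, 1, 7, 0, 3 and 4 in CD+ABX mice and 1, 4, 1, 0 and 2 in TDD+ABX mice. TDD mouse 4 alone was high, at 3.77 CPM against at most 0.251 CPM in the rest of its group, and it was the only mouse that brought Saa1 past the expression filter of 0.5 CPM. The same mouse had the most Reg3b and Reg3g. Its albumin level was shared with TDD mouse 5 and CD+ABX mice 1 and 2, which had 5, 1 and 7 reads of Saa1. The part of hepatic RNA in the Saa1 reads was not tested. The fitted values, 3.07 ± 1.02 for diet in SPF mice (q = 0.051) and -4.53 ± 1.17 for ABX on TDD (q = 0.0157, called), thus describe 1 mouse, and without it Saa1 was not tested. The call for ABX on TDD was lost by limma-voom (-2.70, q = 0.105), on log2(TPM + 1) (-0.90, q = 0.128), with only the 2 groups (q = 0.0621) and with the replicate block (-3.64, q = 0.0671). DESeq2 did not call it, and it was untested when 5 mice had to reach 0.5 CPM. Beside Saa1, whose place among the tested genes came from the group in which it was high, the members called lower by ABX on TDD were Reg3b and Reg3g, where 1.63% of all genes were called and 1.26% were called lower. Saa1 read counts may include reads of Saa2.

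Saa2 had no read in 17 mice and 2 reads each in TDD mice 4 and 5 and CD+ABX mouse 2. Retnlb had 0 to 3 reads in every mouse, with 2, 0, 1, 0 and 1 in CD, 0, 2, 3, 3 and 0 in TDD, 0, 0, 0, 2 and 1 in CD+ABX and 0, 0, 2, 0 and 0 in TDD+ABX mice. Both were under the filter and were not tested. A level of 3 reads, the most that a count of 0 allows, was 0.0510 to 0.0827 CPM per mouse and covers counting error only. No difference in Retnlb or Saa2 was detectable at this depth.

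Saa3, an amyloid gene of macrophages, fat cells and epithelium, was low and even. It ranged from 1.09 to 3.12 CPM in CD, 1.44 to 1.95 in TDD, 1.74 to 2.90 in CD+ABX and 1.59 to 2.06 in TDD+ABX mice. The groups overlapped, and no comparison passed (diet in SPF mice -0.51 ± 0.21, q = 0.106; diet under ABX -0.43 ± 0.20, q = 0.333). Over the 20 mice 93.3% of its assigned reads fell on ENSMUST00000210913, a 2200-base transcript that reads through an intron of the 555-base transcript ENSMUST00000006956, which held 4.18%. The value thus rests mostly on sequence outside the spliced coding transcript. That 555-base transcript was not even between mice. It had 22.8 estimated reads in TDD mouse 4, 32.1% of the Saa3 reads there, and at most 7.61 in any other mouse. This difference was not tested.

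Compared per transcript length, in TPM, the order of levels in CD mice was Reg3b (1615 ± 426), Reg3g (446 ± 148), Reg3a (322 ± 71.6), Reg4 (108 ± 28.6), Reg1 (8.48 ± 3.63), Saa3 (1.92) and Saa1 (0.261), with Retnlb at 0.0465 and Saa2 listed at 0. Reg3g and Reg3a overlapped between mice and the gaps between Reg3b and Reg3g and between Reg3a and Reg4 did not. In TDD+ABX mice Reg3g (136 TPM), Reg3a (188 TPM) and Reg4 (177 TPM) had drawn level, and Reg3b stood at 526 TPM. The 9 genes took 0.0949% to 0.178% of assigned reads in CD mice and 0.371%, 0.299%, 0.0927%, 0.930% and 0.0872% in TDD mice 1 to 5. They took 0.0350% to 0.0794% in ABX-treated mice. In TDD mouse 4, Reg3b alone held 0.731% of assigned reads.

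Over the 7 tested members the median log2 fold change was 0.58 for diet in SPF mice, -0.43 for diet under ABX, -0.64 for ABX on CD and -0.55 for ABX on TDD. The medians over all tested genes were 0.01, 0.00, 0.00 and -0.03. All 4 member medians include Saa1, which entered through 1 mouse. Over the 6 members without it they were 0.04, -0.42, -0.90 and -0.32, so the median for diet in SPF mice then lay near that of all genes.

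The genes most like Reg3b over the 20 mice, by Pearson's r of log2(CPM + 1) among 14047 genes with a mean of at least 1 CPM, were Reg3g (0.958), Alpk1 (0.850), Cyba (0.816), Abca1 (0.809) and Aplp2 (0.807). For Reg3g they were Reg3b, Cyba (0.846), Casp4 (0.831), Alpk1 (0.824) and BC064078 (0.811). Alpk1 encodes a kinase that senses bacterial sugar nucleotides, Cyba a subunit of the NADPH oxidases and Casp4 an inflammatory caspase that binds lipopolysaccharide. The likeness of Alpk1 to Reg3b was 0.559 within groups, so much of it was shared group differences. Alpk1 was lower with ABX on TDD (-1.22 ± 0.14, q = 0.000215) and on CD (-0.55, q = 0.0141), and higher on TDD in SPF mice (0.65 ± 0.14, q = 0.00377). For Saa1 the list was Ighv1-78 (0.781), Zc3h12a (0.769), Reg3g (0.746), Nos2 (0.734) and Clca3a2 (0.730), and without TDD mouse 4 these were 0.318, 0.403, 0.699, -0.02 and 0.397. Retnlb was too low for such a ranking.

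Of the 6 other genes of these families, 5 were tested and none was called. Reg3d, a neighbour of the Reg3 genes, was lower with ABX on CD (-0.93 ± 0.29, q = 0.0379) and on TDD (-0.99 ± 0.29, q = 0.0269), in each case short of 2-fold. The cytokines that induce these genes were mostly below the filter: 4 of 13 could be tested. Il22 had 0 to 3 reads and Il13, which induces Retnlb in goblet cells, 0 to 4 reads per mouse. None of the 4 tested cytokines was called. Il18, which is made by the epithelium itself, was lower with ABX on TDD (-0.82 ± 0.14, q = 0.00162), where 15.4% of genes had q under 0.05.

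All 14 receptor genes were tested. Il22ra1, the epithelial IL-22 receptor chain, ran from 39.6 to 111 CPM and did not pass any comparison (diet in SPF mice -0.26, q = 0.377). Il22ra2, the soluble decoy receptor that binds IL-22, was the only one called: it fell 2.09-fold with ABX on TDD, from 1.91 to 4.98 CPM to 1.18 to 3.09 CPM (-1.06 ± 0.26, q = 0.0104), and the groups overlapped. That call was lost without TDD mouse 4 or 5 or TDD+ABX mouse 1, the last giving -0.92. Osmr, the oncostatin M receptor, and Il6ra, the IL-6 receptor, were higher on TDD in SPF mice but under 2-fold (0.57, q = 0.00899, and 0.48, q = 0.00117). With ABX on TDD 6 receptor genes, Il22ra2, Osmr and Il6ra among them, were lower at q under 0.05, and 1, Il17rc, was higher. With ABX on CD 2 were higher and 2 lower. Of all genes, 14.4%, 15.4% and 12.6% had q under 0.05 in these 3 comparisons.

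Of the 15 signalling genes, Socs3 alone was called. Socs3 is transcribed in response to Stat3 and restrains cytokine receptors. It was 44.6, 29.0, 28.1, 42.2 and 24.3 CPM in CD mice 1 to 5 and 183, 106, 111, 148 and 139 CPM in TDD mice 1 to 5. All TDD mice exceeded all CD mice, as for 4.68% of genes, TDD mice 3 and 5 included, which had the lowest Reg3b. Socs3 rose 4.09-fold (2.03 ± 0.22, q = 1.73e-05), and the call held without any 1 mouse (1.91 to 2.15). Under ABX it was 52.9, 48.1, 43.6, 25.7 and 61.1 CPM on CD and 81.1, 92.3, 65.5, 91.5 and 83.4 CPM on TDD. These groups did not overlap, as for 2.35% of genes in that direction. The 1.79-fold difference passed the test, as 1.64% of genes did, but not the 2-fold limit (0.84 ± 0.21, q = 0.0497). The interaction was -1.20 ± 0.30 (q = 0.146), so a difference between these diet effects was not shown. Stat3 itself ran from 108 to 177 CPM and Myd88 from 26.8 to 39.9 CPM, with diet values in SPF mice of 0.10 (q = 0.545) and -0.21 (q = 0.0857).

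**Figure D5:**
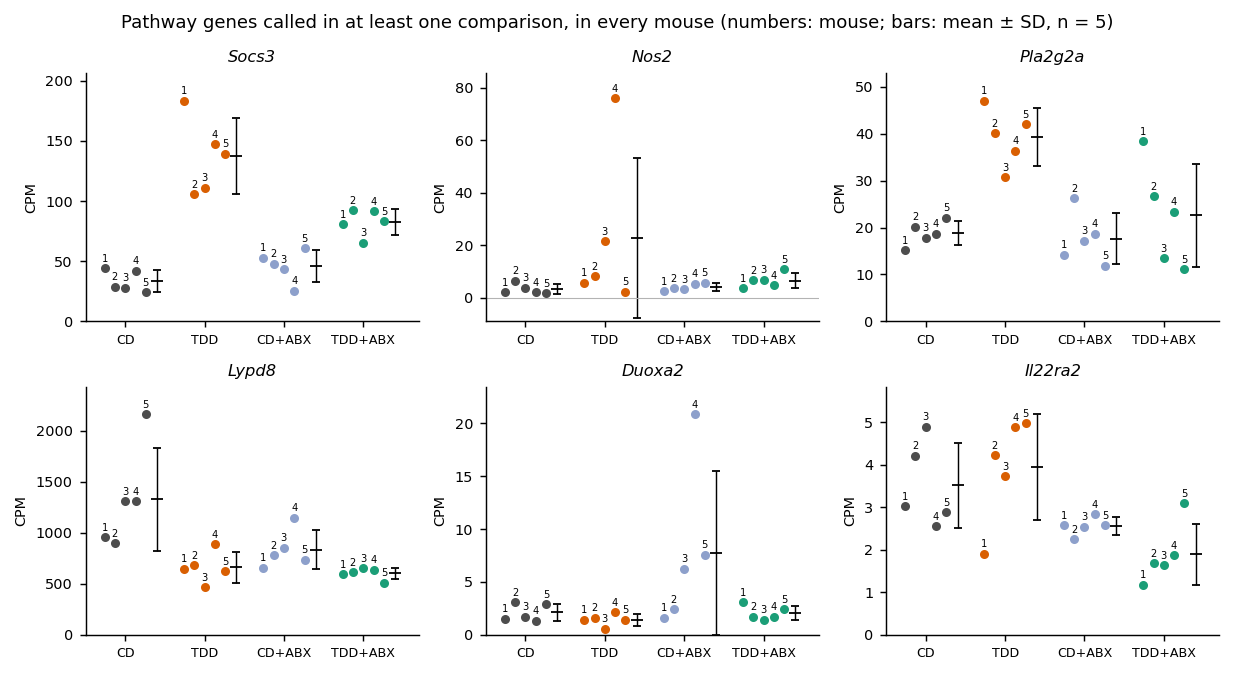
CPM of the 6 pathway genes called in at least 1 comparison, in every mouse by group, with mouse numbers and mean ± SD of 5 mice. Socs3 separates the diets with and without ABX, Nos2 is raised chiefly in TDD mouse 4 (76.1 CPM), and Duoxa2 is raised chiefly in CD+ABX mouse 4 (20.9 CPM).

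Of 18 other epithelial genes known to respond to microbes, 15 were tested, and 3 were called with diet in SPF mice, where 1.83% of all genes were called. The diet groups did not overlap for 4.68% of all genes in the higher direction and 4.9% in the lower. Pla2g2a, a secreted phospholipase that kills Gram-positive bacteria, rose 2.09-fold on TDD, from 15.2 to 22.1 CPM to 30.8 to 47.0 CPM with no overlap (1.06 ± 0.27, q = 0.013). The call was lost without CD mouse 1 or TDD mouse 1, although the value stayed between 0.99 and 1.12. Lypd8, which binds flagella and keeps bacteria from the epithelium, fell 2.01-fold, from 897 to 2164 CPM to 467 to 888 CPM, also with no overlap (-1.01 ± 0.21, q = 0.00361). Its value was -0.77 without CD mouse 5, and the call was likewise lost without TDD mouse 1, 3 or 5. Nos2, the inducible nitric oxide synthase, was 2.12, 6.54, 3.85, 2.09 and 1.62 CPM in CD and 5.72, 8.11, 21.6, 76.1 and 2.26 CPM in TDD mice 1 to 5. Its call (2.80 ± 0.72, q = 0.0137) was lost without TDD mouse 4 (1.54, q = 0.0696). Within the TDD group Nos2, like Reg3b, was highest in mouse 4 and lowest in mouse 5, but mouse 3 was the second highest for Nos2 and the second lowest for Reg3b.

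With ABX on CD the direction of Duoxa2, the maturation factor of the hydrogen peroxide producing oxidase Duox2, was opposite to that of the lectins. It rose 3.68-fold, from 1.33 to 3.07 CPM in CD mice to 1.61, 2.45, 6.25, 20.9 and 7.56 CPM in CD+ABX mice 1 to 5 (1.88 ± 0.53, q = 0.0256). Without CD+ABX mouse 4 the value was 1.10 (q = 0.108), and the call was also lost without CD mouse 1, 3 or 4. Duox2 itself did not pass (1.53 ± 0.51, q = 0.057). Fut2, which adds fucose to epithelial glycans that bacteria feed on, was 1.99-fold higher with ABX on CD without overlap (0.99 ± 0.22, q = 0.00719), as 3.86% of genes were without overlap in that direction. Lypd8 was lower with ABX on CD at q under 0.05 and under 2-fold, with means of 1327 CPM in CD and 835 CPM in CD+ABX mice. Pigr, the transporter of secretory IgA, was lower with ABX on TDD (-0.81 ± 0.16, q = 0.0029), and Lcn2, which sequesters bacterial siderophores, was higher on TDD in SPF mice (0.62 ± 0.18, q = 0.0292), both under 2-fold.

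Cell types that make the Reg3 lectins were set beside them. Of the 10 Paneth cell markers, 1 was called in any comparison: Mptx2, a secreted pentraxin, fell with ABX on TDD (-1.34 ± 0.30, q = 0.0084), while the lysozyme gene Lyz1 gave -0.34 (q = 0.238) in that comparison. Mmp7, the protease that activates defensins, was higher on TDD in SPF mice (0.84 ± 0.23, q = 0.0184) and lower with ABX on TDD (-0.77 ± 0.23, q = 0.0288), both under 2-fold, and the defensin genes Defa17 (-0.58, q = 0.0359) and Defa26 (-0.83, q = 0.00496) were lower on TDD under ABX. With ABX on TDD, 9 of the 10 Paneth cell markers had a value below 0, with a median of -0.36 against -0.03 over all genes. For diet in SPF mice 6 of them had a value above 0 and 4 below (median 0.06). For diet under ABX 2 were above 0 and 8 below (median -0.28). Of the 10 enterocyte markers, 4 were called higher and 2 lower with ABX on CD (2.25% of all genes were called), and 3 higher and 1 lower with ABX on TDD (1.63%). Tuft cell markers were higher at q under 0.05, short of 2-fold, in 5 of 5 with ABX on CD (12.6% of all genes had q under 0.05) and in 3 of 5 with ABX on TDD (15.4%), and their sums averaged 47.8, 40.5, 82.1 and 59.9 CPM in CD, TDD, CD+ABX and TDD+ABX mice. Of 6 tested macrophage and neutrophil markers, 4 were lower with ABX on CD, 2 with ABX on TDD (Csf1r and Lyz2) and 3 on TDD in SPF mice, also under 2-fold. For diet in SPF mice 1 of these markers had a value above 0 and 5 below, and 14.4% of all genes had q under 0.05. The part of these shifts in cell markers in the levels of the lectins was not tested.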

How the data were processed

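Ileal poly-A RNA of 20 mice was sequenced, 1 library per mouse. Per the methods of the study, the authors assigned reads to GRCm38 transcripts with kallisto 0.44.0. They deposited estimated counts per gene, as whole numbers, and estimated counts and TPM per transcript; no per-sample column was left unused. The 16306 of 35204 genes that reached 0.5 CPM in 1 mouse or more were tested with edgeR 4.0.16 in R 4.3.3: TMM scaling, robust quasi-likelihood fit of the 4 groups, Benjamini-Hochberg adjustment, called at q under 0.05 and at least 2-fold. The test used in the study's web application is not given in the sources used here. TPM was summed per gene by matching transcripts to GENCODE M21 (98.38% matched), used for levels per length and, with limma 3.58.1 on log2(TPM + 1) or log2(TPM + 0.1), as an alternative. Other alternatives were RLE and upper-quartile scaling, other low-count filters, DESeq2 1.42.0, limma-voom, only the groups compared, a replicate block, single mice left out, summed paralogs, no fold limit and, chosen after seeing the data, no robust estimation and omission of the 5 libraries with pancreatic or hepatic RNA. The members' median was also taken without Saa1. Self-tests ran on simulated data. The members and all gene lists were chosen with earlier results of these data known. Named were the 9 members, every listed pathway gene that was called, 9 genes fixed by name, and the 5 genes most like Reg3b, Reg3g, Retnlb and Saa1; others (Reg3d, Il18, Osmr, Il6ra, Pigr, Lcn2, Alb, Pnlip, Clps, Cd79a, Mptx2, Lyz1, Mmp7, Defa17, Defa26, Fcgbp, Clca1, Neurod1, Csf1r, Lyz2, Slc10a2, Fabp6) were named after their values were seen. Library totals of 36676963 to 58662617 make 1 read 0.0170 to 0.0276 CPM.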

Additional observations from a re-analysis of the deposited data

Results flagged for a closer look

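Of 100 sets of 5 mice examined, 9 held a mouse far from the other 4 by Dixon's criterion. For independent, normally distributed values chance gives about 1 in 20. These sets shared mice, so that rate cannot be set against the 9. The sets were each tested member, each pathway gene called in at least 1 comparison and each cell marker sum, in each group. TDD mouse 4 stood apart in Reg3g (1876 CPM, next mouse 524), in Saa1 (3.77 CPM, next 0.251) and in Nos2 (76.1 CPM, next 21.6). Its Reg3b (7583 CPM) did not pass the criterion because TDD mice 1 and 2 were also high. TDD+ABX mouse 1 stood apart in Reg4 (196 CPM, next 116).

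Among the marker sums, CD mouse 5 stood apart in pancreatic acinar markers (332 CPM, next 83.6) and TDD mouse 2 by a small margin in the same list (64.6 CPM, next 57.4). CD mouse 2 was lowest in enterocyte markers (19923 CPM, next 35625) and highest in hepatocyte markers (9.86 CPM, next 5.45). TDD+ABX mouse 5 stood apart in B cell and follicle markers (100.3 CPM, next 23.4). Within their groups, CD mouse 2 had the highest Reg3b on CD (1064 CPM), and TDD+ABX mouse 5 had the lowest Reg3a and the second lowest Reg3b.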

How the results depend on the processing

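Leaving out 1 mouse at a time, the genes called numbered 215 to 360 for diet in SPF mice, 25 to 59 for diet under ABX, 272 to 391 for ABX on CD, 163 to 421 for ABX on TDD and 0 to 12 for the interaction, and the members called 1 to 4, 0 to 0, 0 to 2, 2 to 3 and 0 to 0. Values near zero changed sign: Reg4 for ABX on CD (-0.0336 to 0.18), ABX on TDD (-0.15 to 0.20) and the interaction (-0.23 to 0.15), Saa3 for ABX on CD (-0.12 to 0.18) and the interaction (-0.033 to 0.28), and Reg3a for ABX on TDD (-0.17 to 0.0176). Saa1 ran from -5.13 to -4.20 for ABX on TDD and from 2.83 to 3.43 for diet in SPF mice over 19 fits, and could not be tested without TDD mouse 4.

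The calls of Reg3b and Reg3g for ABX on TDD and of Reg1 for diet in SPF mice held with any 1 mouse left out and without the 5 libraries with pancreatic or hepatic RNA. Reg3b for diet in SPF mice was not called under no filter (1.87, q = 0.0795), limma-voom (1.28, q = 0.17), log2(TPM + 1) (1.14, q = 0.211), log2(TPM + 0.1) (1.14, q = 0.21), only the 2 groups (1.89, q = 0.111), the replicate block (1.64, q = 0.106) or without those 5 libraries (1.38). With Reg3b and Reg3g summed, the diet value was 1.81 (q = 0.0415), and with Saa1 and Saa2 summed 3.10 (q = 0.0496).

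Members called for diet in SPF mice numbered 1 under 7 alternatives (no filter, limma-voom, both TPM scales, only the 2 groups, the block, those 5 libraries left out), 4 with paralogs summed (Reg3b and Reg3g by their sum, Saa1 by its sum with Saa2, and Reg1), and 3 with no robust estimation (Saa1 added, q = 0.0494) or no fold limit (Reg3a added). For ABX on CD they numbered 0 under log2(TPM + 1) and without the 5 libraries, 2 without the fold limit and 3 with only the 2 groups. Genes called under log2(TPM + 1) were 140 and 25 for diet in SPF and ABX-treated mice and 131 and 98 for ABX on CD and TDD. Without the 5 libraries they were 141, 27, 198 and 135 and without the fold limit 2342, 268, 2060 and 2505. DESeq2 gave 98 for diet under ABX. The interaction gave 51 genes with DESeq2 and 0 with RLE, no filter, 0.5 CPM in at least 5 mice, limma-voom, the block or without the 5 libraries. Reversed values were Reg4 in the interaction by limma-voom (-0.0074), Reg3a for ABX on TDD (0.0136 and 0.0137 on log2(TPM + 1) and log2(TPM + 0.1)), Saa3 for ABX on TDD (-0.085 and -0.116) and in the interaction (-0.113 and -0.164 on those scales, -0.0147 without the 5 libraries). The cause of these shifts was not tested.

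Same-numbered mice of different groups did not deviate together (30 pairs, r -0.38 to 0.26, median -0.018, 5 over 0.1, and 1 of 20 mice correlated best with its own number). These values gave no sign that the numbers pair the mice, but they cannot exclude it. With the replicate block 240 genes were called for diet in SPF mice, 27 for diet under ABX, 304 for ABX on CD and 243 for ABX on TDD. Depth limits Saa2, Retnlb, Il22 and Il13, which had at most 4 reads in any mouse, and Saa1 outside TDD mouse 4.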
